A study of Mus musculus with 12 samples.

Results

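Fluid moving along a vessel drags on its endothelium, and 7 genes that sense this drag or turn it into a change of vessel tone were followed in RNA of lymphatic endothelial cells (LECs) from mouse lung. The 7 genes were Klf2, Klf4, Nos3, Piezo1, Trpv4, Edn1 and Ece1. They were found by symbol among the 52636 Ensembl genes counted, each matched 1 identifier, and all 7 were among the 21440 genes with enough counts to be tested. The cells came from Prox1-EGFP mice, in which the regulatory sequence of Prox1 drives GFP, and were sorted alive as GFP and CD31 positive and as negative for EpCAM and for hematopoietic lineage markers. All groups carried the reporter, and mice entered the exposures at 6 weeks of age. They breathed cigarette smoke (CS) or room air (RA) for 8 weeks (acute, aged 8wk in the labels) or for 24 weeks or more (chronic, named Aged in the labels). The acute arm had 2 libraries from CS and 2 from RA and the chronic arm 5 from CS and 3 from RA, named here by the sex (F, M) and number in their labels. Each acute library pooled the cells of 2 to 5 mice and no chronic library was pooled, so pooling and length of exposure cannot be told apart.

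Shear stress reaches the nucleus of an endothelial cell along a known path. PIEZO1 and TRPV4 are cation channels that open under mechanical force, and the MEKK3, ERK5 and MEF2 cascade carries the signal on to the genes of the transcription factors KLF2 and KLF4. These factors raise Nos3, the gene of the endothelial nitric oxide synthase, whose product relaxes the muscle of blood vessels and of collecting lymphatics, and they hold down Edn1. Edn1 encodes the precursor of a strong constrictor peptide, endothelin, which the protease of Ece1 releases from that precursor. Flow and PIEZO1 are also needed for the valves of lymphatic vessels.

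The promoters of Klf2, Edn1 and Piezo1 are shown because these genes stand for the factor, the constrictor and the sensor in the comparisons that follow. They were read from RefSeq on GRCm38.p6 and run up to the start of the gene, 5′ to 3′ on its own strand. Capitals mark exact matches, on either strand, to CACCC (the core of KLF sites), GAGACC (the shear stress response element) or TATAAA (the TATA box), none of which overlapped another.
Klf2 (chr8:72318812-72319032, plus strand): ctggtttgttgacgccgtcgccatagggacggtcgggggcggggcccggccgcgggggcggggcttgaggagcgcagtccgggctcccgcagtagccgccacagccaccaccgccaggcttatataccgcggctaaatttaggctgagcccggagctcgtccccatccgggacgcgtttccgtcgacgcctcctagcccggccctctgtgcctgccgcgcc
Edn1 (chr13:42301226-42301475, plus strand): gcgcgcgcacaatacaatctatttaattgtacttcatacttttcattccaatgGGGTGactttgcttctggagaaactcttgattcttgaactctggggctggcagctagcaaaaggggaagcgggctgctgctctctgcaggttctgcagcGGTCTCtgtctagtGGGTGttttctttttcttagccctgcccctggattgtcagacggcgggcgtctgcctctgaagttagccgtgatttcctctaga
Piezo1 (chr8:122551330-122551579, minus strand): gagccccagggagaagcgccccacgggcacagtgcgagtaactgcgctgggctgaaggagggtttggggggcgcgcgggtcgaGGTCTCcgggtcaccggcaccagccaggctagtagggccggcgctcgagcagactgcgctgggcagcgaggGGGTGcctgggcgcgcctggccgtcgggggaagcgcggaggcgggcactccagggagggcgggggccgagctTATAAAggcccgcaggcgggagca
The Edn1 window held CACCC at 197 and 84 bases and GAGACC at 98 bases before the start, each on the opposite strand. The Piezo1 window held CACCC at 96, GAGACC at 167 and TATAAA at 24 bases before the start. No match lay in the stretch of Klf2 that is shown, and 1 CACCC lay 19 bases before its RefSeq start, beyond that stretch. Of all 32851 windows of 250 bases, 52% held CACCC, 13.7% held GAGACC and 12.4% held TATAAA, so each match is common. The AP-1 motif TGACTCA, in 4.46% of windows, was in none of these windows. The windows of Klf2 and Piezo1 were rich in G and C, at 71.2% and 74%, while that of Edn1 held 50.4%. RefSeq windows were matched for 6 of the 7 genes, all but Nos3.

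In room air, these LECs held far more RNA of the 2 factors and of the endothelin protease than of the channels, and least of Nos3 and Edn1. Levels between genes are given per length, as FPKM computed over all exon bases of the gene, and ranks are among 21295 tested genes with a length. Klf2 (ENSMUSG00000055148, GRCm38 chromosome 8, 72319033 to 72321656) averaged 771 FPKM over the 5 RA libraries and ranked 24. Ece1 (ENSMUSG00000057530, chromosome 4, 137862237 to 137965229) averaged 298 FPKM and ranked 97, and Klf4 (ENSMUSG00000003032, chromosome 4, 55527143 to 55532466) averaged 81.0 FPKM and ranked 588. Both channels lay well below these. Piezo1 (ENSMUSG00000014444, chromosome 8, 122481698 to 122551329) averaged 16.8 FPKM and Trpv4 (ENSMUSG00000014158, chromosome 5, 114622152 to 114658421) 14.8 FPKM. Nos3 (ENSMUSG00000028978, chromosome 5, 24364810 to 24384474) averaged 3.73 FPKM and Edn1 (ENSMUSG00000021367, chromosome 13, 42301476 to 42307990) 2.78 FPKM. All 7 are protein coding genes, and the counts are of their exons.

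Klf2 was above Ece1, and Ece1 above Klf4, in all 12 libraries. The FPKM ranges of neighbours in the order were apart over the 5 RA libraries with 2 exceptions. Piezo1 and Trpv4 overlapped, with Piezo1 the higher in 3 of 5 libraries, and Nos3 and Edn1 overlapped, with Nos3 the higher in 4 of 5. Edn1 moved within the order, from last in both acute RA libraries to 4th, directly after Klf4, in both acute CS libraries. Over all 12 libraries the coefficient of variation of CPM was 103% for Edn1 and 58.3% for Nos3, against 16.5% for Ece1.

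**Figure D1:**
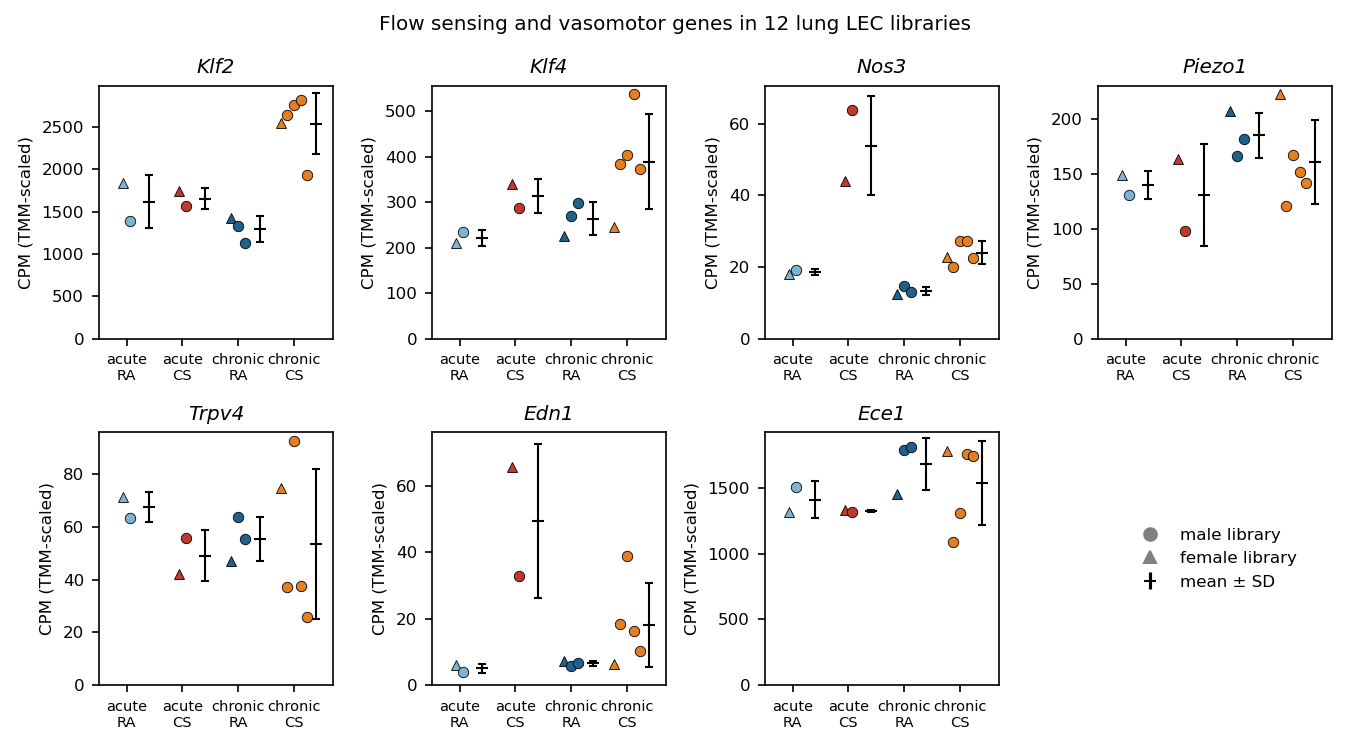
Level of each gene in CPM (TMM-scaled counts per library depth, linear axes from 0) in the 12 libraries by group. Each point is a library (triangles female, circles male) and the bar beside it the group mean ± SD. Klf2 was above every RA library in all 5 chronic CS libraries, while Nos3 was highest in the 2 acute CS libraries. Edn1 was highest in acute CS F, followed by chronic CS M2 and acute CS M.

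The libraries held 18821438 (chronic CS F) to 56998590 (acute RA F) counts, so that 3 counts, taken as a floor, equal 0.158 to 0.0507 CPM, and all 7 genes were far above this in every library. Prox1, the gene behind the GFP sort, stood at 1814 to 2476 CPM in every library but the acute CS ones, which held 1042 (F) and 1262 (M) CPM. Summed CPM over 8 lymphatic markers was 15254 to 17066 in acute RA and 6485 to 9822 in acute CS, and over 12 blood endothelial markers 2907 to 3716 and 6979 to 8024. Ptprc, a pan-leukocyte gene, was at 19.6 to 19.8 CPM in acute RA and at 285 (F) and 154 (M) CPM in acute CS. The paper does not list the markers in the lineage cocktail of the sort. Epcam, the epithelial gene of the sort, was at 1.51 CPM or less in RA, at 16.1 (F) and 2.30 (M) CPM in acute CS, and from 0 (F) to 6.33 (M3) CPM in chronic CS, where M2, M3 and M4 were above every RA library. Of the lymphatic markers, Ccl21a was at or near 0 throughout, and its reads may be split over near-identical copies. Their part in the results on acute CS was not tested. In bulk RNA, fewer cells of a type and less RNA per cell cannot be told apart.

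After acute CS, the vasomotor genes Nos3 and Edn1 were higher than in acute RA, and neither the factors, the channels nor Ece1 passed the test. Edn1 rose 9.77-fold and Nos3 2.91-fold, so the constrictor and the synthase of the dilator were higher in the same libraries. Klf2, the factor that acts on both genes, averaged 1657 ± 121 CPM in smoke and 1617 ± 313 CPM in air (SD, n = 2 each), a difference smaller than its spread. The test throughout is edgeR's quasi-likelihood test over 21440 genes with Benjamini-Hochberg adjustment and a limit of 0.05. It called 2 of the 7 genes higher and 0 lower, against 3.47% of all genes, 2.75% higher and 0.723% lower.

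Nos3 was at 17.9 (F) and 19.1 (M) CPM in acute RA and at 44.1 (F) and 63.7 (M) CPM in acute CS. Both CS libraries lay above both RA libraries. The means were 53.9 ± 13.8 and 18.5 ± 0.796 CPM (SD, n = 2 each), and the log2 fold change was 1.54 (SE 0.23, edgeR's adjusted p = 0.00747). Edn1 was at 6.05 (F) and 4.07 (M) CPM in acute RA and at 65.9 (F) and 33.0 (M) CPM in acute CS, again with no overlap. The means were 49.5 ± 23.3 and 5.06 ± 1.40 CPM (SD, n = 2 each), and the log2 fold change was 3.29 (SE 0.72, edgeR's adjusted p = 0.0293). The CS libraries themselves differed, with Edn1 higher in F and Nos3 higher in M. An exact permutation test of 2 against 2 libraries cannot go below p = 0.333, which is what it gave for both genes. Nos3 was no longer called without acute RA F (edgeR's adjusted p = 0.0782) or acute RA M (0.0942), with the acute groups fitted alone (0.0840) or with the replicate block (0.0735), over alternatives from 3.19e-09 to 0.0942. Edn1 lost its call with the acute groups alone (0.0730), with the replicate block (0.0994) and without acute RA F (0.175), acute RA M (0.267), acute CS F (0.189) or chronic RA M2 (0.0518), over edgeR and DESeq2 alternatives from 3.12e-05 to 0.267.

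Klf2 was at 1838 (F) and 1396 (M) CPM in acute RA and at 1742 (F) and 1571 (M) CPM in acute CS, so the CS libraries fell between the RA libraries. Its log2 fold change was 0.03 (SE 0.19, edgeR's adjusted p = 0.976), and its sign turned with scaling by library size. Klf4 was at 209 (F) and 234 (M) CPM in acute RA and at 339.6 (F) and 287 (M) CPM in acute CS. These groups did not overlap, but the log2 fold change of 0.50 (SE 0.28) did not pass the test (edgeR's adjusted p = 0.444).

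The channel Piezo1 was at 148 (F) and 131 (M) CPM in acute RA and at 163 (F) and 98.0 (M) CPM in acute CS, with the highest and the lowest value both in smoke. Trpv4 was at 71.5 (F) and 63.5 (M) CPM in acute RA and at 42.2 (F) and 55.9 (M) CPM in acute CS, both CS libraries below both RA libraries. Neither passed the test, with log2 fold changes of -0.10 (SE 0.28) for Piezo1 and -0.46 (SE 0.49) for Trpv4 (edgeR's adjusted p = 0.946 and 0.773). Ece1 was at 1317 (F) and 1513 (M) CPM in acute RA and at 1333 (F) and 1322 (M) CPM in acute CS. Its log2 fold change was -0.09 (SE 0.23, edgeR's adjusted p = 0.931), and no difference was detected for the protease that activates endothelin. In all, 3 genes lay wholly higher and 1 wholly lower in acute CS, where 49.9% of all genes tested did not overlap, 27.4% higher and 22.5% lower.

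**Figure D2:**
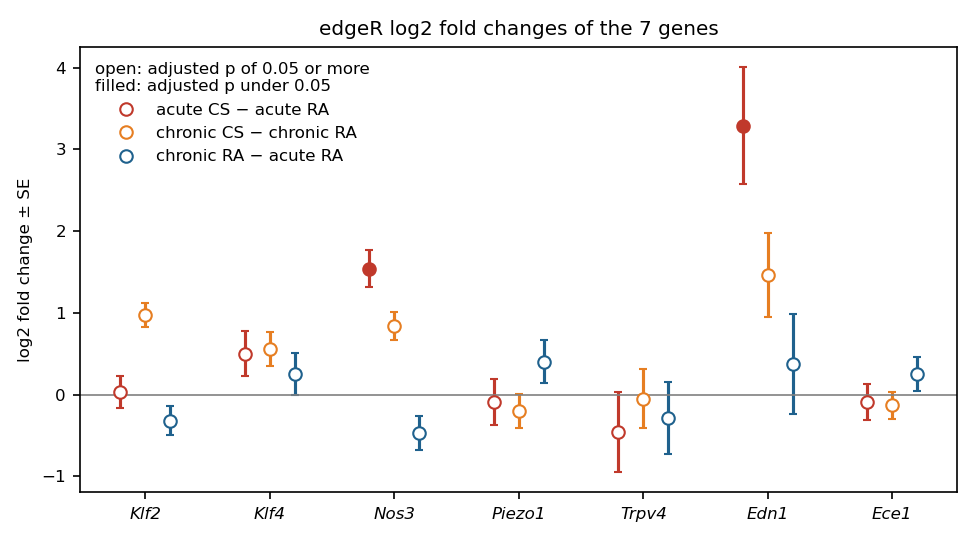
Log2 fold change ± SE of the 7 genes from edgeR, for smoke against air at each time point and for the chronic against the acute RA libraries. The 2 filled points, Nos3 and Edn1 after acute CS, are the differences with an adjusted p under 0.05.

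After chronic CS, the leading gene of the 7 was Klf2, which was higher in all 5 CS libraries than in any chronic RA library, 1.96-fold on average. The groups of Nos3 did not overlap either, while Edn1 ranged from 6.46 to 39.1 CPM among the CS libraries. No gene of the 21440 passed the adjusted limit in edgeR for this comparison, so 0 of the 7 were called, against 0% of all genes. By the unadjusted p, 4 of the 7 (Klf2, Klf4, Nos3 and Edn1) were higher at a p under 0.05 and 0 lower, where 5.57% of all genes were higher and 5.35% lower. DESeq2 called 524 genes and 2 of the 7, Klf2 and Nos3.

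Klf2 was at 1425 (F), 1334 (M1) and 1127 (M2) CPM in chronic RA. In chronic CS it was at 2549 (F), 2647 (M1), 2758 (M2), 2826 (M3) and 1934 (M4) CPM. The groups did not overlap, with M4 the lowest of the smoke group. The means were 2543 ± 356 (SD, n = 5) and 1296 ± 153 CPM (SD, n = 3). The log2 fold change was 0.97 (SE 0.15), the unadjusted p of 3.40e-05 ranked 4 among the 21440 genes, and edgeR's adjusted p was 0.145. An exact two-sided permutation test gave p = 0.0357, the smallest that 5 against 3 libraries allow. With no filter on low counts edgeR's adjusted p was 0.0293 and DESeq2's was 1.70e-07, and over the alternatives in edgeR and DESeq2 it ran up to 0.557. The log2 fold change was 0.88 to 1.06 in all 20 alternatives.

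Nos3 was at 12.5 (F), 14.6 (M1) and 12.9 (M2) CPM in chronic RA. In chronic CS it was at 22.7 (F), 19.9 (M1), 27.2 (M2), 27.2 (M3) and 22.5 (M4) CPM, again without overlap. The means were 23.9 ± 3.22 (SD, n = 5) and 13.3 ± 1.09 CPM (SD, n = 3). The log2 fold change was 0.84 (SE 0.17), the unadjusted p of 0.000444 ranked 45, and edgeR's adjusted p was 0.211. The exact permutation p was 0.0357, and DESeq2 gave an adjusted p of 0.000172, with edgeR's and DESeq2's alternatives running up to 0.630. Klf2 and Nos3 were the 2 genes of the 7 whose chronic groups did not overlap, where 9.41% of all genes did not overlap, 3.92% higher and 5.49% lower in chronic CS.

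Edn1 was at 7.17 (F), 5.85 (M1) and 6.65 (M2) CPM in chronic RA. In chronic CS it was at 6.46 (F), 18.4 (M1), 39.1 (M2), 16.4 (M3) and 10.1 (M4) CPM. The 4 male CS libraries lay above all RA libraries, and the only female CS library lay within them. The log2 fold change was 1.46 (SE 0.51, edgeR's adjusted p = 0.372), and the exact permutation p was 0.107. Without chronic CS M2 the log2 fold change was 0.97. Klf4 had the same arrangement, with 224 (F), 269.7 (M1) and 297 (M2) CPM in chronic RA and 246 (F), 384 (M1), 404 (M2), 538 (M3) and 372 (M4) CPM in chronic CS. Its log2 fold change was 0.56 (SE 0.21, edgeR's adjusted p = 0.385). With 1 female library in each group, a difference between the sexes was not tested.

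The channels and Ece1 spread widely among the chronic CS libraries and none passed the test. Piezo1 was at 207 (F), 166 (M1) and 181 (M2) CPM in chronic RA and at 223 (F), 121 (M1), 167 (M2), 151 (M3) and 141 (M4) CPM in chronic CS. Trpv4 was at 46.9 (F), 63.8 (M1) and 55.4 (M2) CPM in chronic RA. It spread to both sides of these in chronic CS, at 74.6 (F), 37.4 (M1), 92.5 (M2), 37.6 (M3) and 26.0 (M4) CPM. Ece1 was at 1458 (F), 1791 (M1) and 1814 (M2) CPM in chronic RA and at 1788 (F), 1089.7 (M1), 1310.2 (M2), 1765 (M3) and 1746 (M4) CPM in chronic CS. The log2 fold changes were -0.20 (SE 0.20) for Piezo1, -0.05 (SE 0.36) for Trpv4 and -0.13 (SE 0.16) for Ece1, with edgeR's adjusted p at 0.748, 0.976 and 0.801. Trpv4 had a log2 fold change of 0.32 with F, M1 and M2 as the only CS libraries and of -0.80 with M3 and M4, and its sign turned with scaling by library size.

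**Figure D3:**
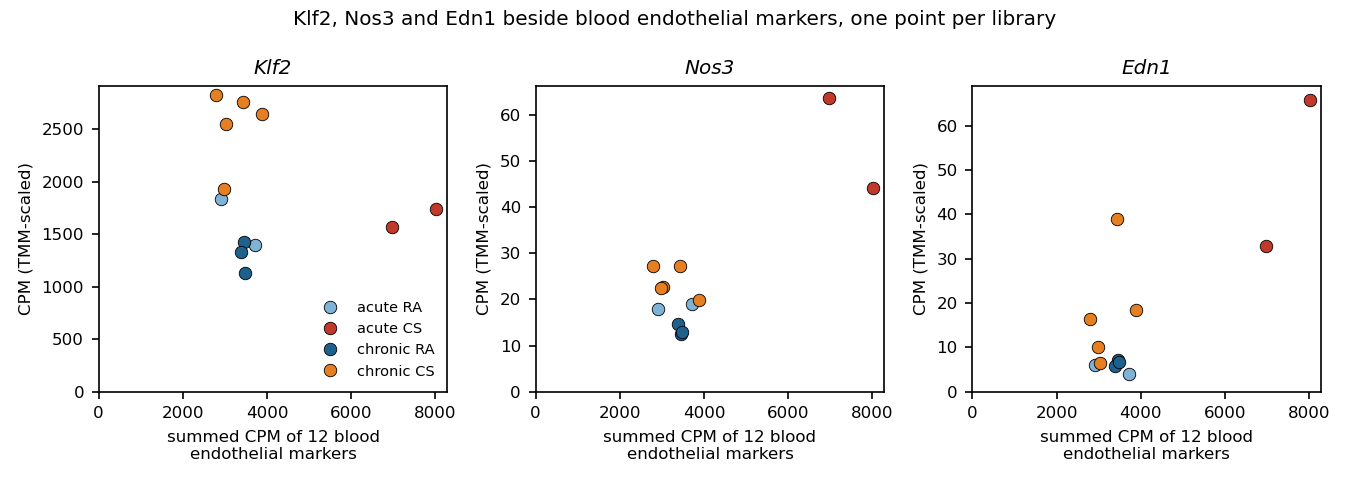
Klf2, Nos3 and Edn1 in CPM against the summed CPM of 12 blood endothelial markers, 1 point per library and linear axes from 0. The acute CS libraries stand apart at 6979 to 8024 CPM of markers, while the chronic CS libraries lie at 2787 to 3875 CPM. Plvap makes up most of the sum outside acute CS, and 10 of the 12 markers had positive log2 fold changes after chronic CS.

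Marker genes of other cells were summed in the chronic libraries as well. The summed level of the 12 blood endothelial markers was 3389 to 3474 CPM in chronic RA and 2787 to 3875 CPM in chronic CS. Most of this sum was Plvap, at 2743 ± 49.2 CPM in chronic RA (SD, n = 3) and 2135 ± 400 CPM in chronic CS (SD, n = 5). Of the 12 markers, 10 had positive log2 fold changes, with a median of 0.85 and 0 called in edgeR. At an unadjusted p under 0.05, 5 were higher and 1 (Plvap) lower, against 5.57% and 5.35% of all genes. Of the 5, Vwf, named after its values were seen, was at 51.0 to 61.4 CPM in chronic RA and 88.6 to 276 CPM in chronic CS. The sum of 15 immediate early and handling response genes overlapped between the chronic groups, at 24490 to 29774 CPM in RA and 22825 to 29053 CPM in CS. It was lower in acute CS, at 10566 to 12414 against 16689 to 20576 CPM in acute RA, and acute RA lay below chronic RA. Of the 15 genes, 4 were called lower and 2 higher after acute CS, against 0.723% and 2.75% of all genes. The 8 leukocyte markers summed to 420 to 850 CPM in chronic RA and 481 to 1965 CPM in chronic CS, and Ptprc was at 12.4 to 20.2 and 11.1 to 54.3 CPM. Of these 8 markers, 7 had positive log2 fold changes, with a median of 1.06. At an unadjusted p under 0.05, 3 were higher, against 5.57% of all genes. The epithelial and mesenchymal sums were higher in every chronic CS library, at 1152 to 4937 against 242 to 497 CPM over 9 epithelial markers and at 208 to 350 against 118 to 146 CPM over 9 mesenchymal markers. The 10 alveolar macrophage markers had a median log2 fold change of 1.43, with 9 positive and 4 higher at an unadjusted p under 0.05, against 5.57% of all genes. They summed to 598 to 686 CPM in chronic RA and 621 to 1001 CPM in chronic CS. Most of this sum was Mrc1, at 578 ± 18.5 CPM in chronic RA (SD, n = 3) and 581 ± 38.2 CPM in chronic CS (SD, n = 5). The 8 lymphatic markers summed to 19934 to 22931 CPM in chronic RA, to 20466 to 21220 CPM in chronic CS F, M3 and M4, and to 14901 and 15137 CPM in chronic CS M1 and M2, the libraries with the lowest Ece1 and the highest Edn1 of the chronic groups. The part of all these markers in the levels of the 7 genes was not tested. In the acute comparison all 12 blood endothelial markers and all 8 leukocyte markers had positive log2 fold changes, 6 and 5 of them called higher, with list medians of 2.64 and 3.48. All 9 mesenchymal and all 8 lymphoid markers and 9 of 10 alveolar macrophage markers were positive too, with 5, 3 and 3 called higher. Their sums were 134 to 208 CPM, 18.3 to 19.8 CPM and 692 to 777 CPM in acute RA and 639 to 994 CPM, 200.1 to 207 CPM and 2182 to 2339.8 CPM in acute CS. The 1 alveolar macrophage marker called lower was Mrc1, most of that sum in acute RA. Mrc1 was at 647 ± 22.2 CPM in acute RA and 338 ± 103 CPM in acute CS (SD, n = 2 each). Of all genes, 2.75% were called higher and 0.723% lower after acute CS. The 9 epithelial markers were positive with 0 called, and summed to 1035 to 1842 CPM in acute RA and 219 to 8475 CPM in acute CS. Of the 8 lymphatic markers, 7 had negative log2 fold changes, with a list median of -1.05 and 3 called lower. The 1 positive marker was Lyve1, at 442.5 to 535.7 CPM in acute RA and 568.2 to 985.8 CPM in acute CS. The part of these markers in the higher Nos3 and Edn1 was not tested.

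Chronic RA was set against acute RA to see how the 7 genes stood without smoke. None of the 7 genes was called, and none of the 21440 genes was (0%), with 1504 at an unadjusted p under 0.05 in edgeR and 253 called by DESeq2. Nos3 was the only one of the 7 with an unadjusted p under 0.05 and was lower in all 3 chronic RA libraries, with a log2 fold change of -0.47 (SE 0.21, edgeR's adjusted p = 0.705), where 2.5% of all genes were lower at that p. Piezo1 lay wholly higher in chronic RA, at a log2 fold change of 0.40 (SE 0.26, edgeR's adjusted p = 0.781). Groups that did not overlap were found in 34.7% of all genes here, 17.7% higher and 17% lower. Marker lists were read between the same libraries too, with 0 markers called. Of 9 epithelial markers 8 had negative log2 fold changes and 5 lay wholly lower in chronic RA, with a median of -1.32, and of 9 mesenchymal markers 6 were negative and 4 wholly lower, with -1.26. Of 8 lymphatic markers 6 were positive and 5 wholly higher, with 0.51, of 8 lymphoid markers 7 and 4, with 1.61, and of the 15 immediate early genes 13 and 8, with 0.50. All 5 erythroid markers were positive and 4 wholly higher, with 2.60, and summed to 37.7 to 69.9 CPM in acute RA and 196 to 432 CPM in chronic RA. The 12 blood endothelial markers had a median of 0.03. The part of these lists in the lower Nos3 was not tested.

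The acute and the chronic effect were then tested against each other. None of the 7 differed past the limit, against 0.452% of all genes. Klf2 came nearest, with an acute effect lower than the chronic effect by a log2 value of -0.94 (SE 0.24, edgeR's adjusted p = 0.128), and DESeq2 called it (adjusted p = 0.00893, in a range over edgeR and DESeq2 alternatives up to 0.518). The acute effect was the larger for Edn1 by 1.83 (SE 0.82, edgeR's adjusted p = 0.412) and for Nos3 by 0.70 (SE 0.28, edgeR's adjusted p = 0.350). For Klf4, Piezo1, Trpv4 and Ece1 the log2 values lay between -0.41 and 0.11.

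Genes around the 7 were read from 5 pathway lists with 87 genes, of which 85 were tested. After acute CS edgeR called 20 of these, against 3.47% of all genes. The count fell to 0 without acute RA M, 2 without acute RA F, 5 without acute CS F, 1 with the acute groups fitted alone and 3 with the replicate block. After chronic CS edgeR called 0 of them and DESeq2 called 8. For scale, the median log2 fold change of all genes was 0.04 in the acute and 0.01 in the chronic comparison. The part of the markers of other cells in these lists was not tested.

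Among 17 flow and stretch sensors, 3 rose and 1 fell in acute CS, against 2.75% and 0.723% of all genes called. The median of the list was 0.14 on the log2 scale. Trpv2, a channel opened by stretch, rose by 4.13 on the log2 scale (SE 0.83, edgeR's adjusted p = 0.0215), and Piezo2, the relative of Piezo1, by 2.05 (SE 0.46, adjusted p = 0.0355). Trpv2 was at 2.67 ± 2.51 CPM in air and 46.8 ± 9.23 CPM in smoke (SD, n = 2 each). Leukocyte and alveolar macrophage markers had median log2 fold changes of 3.48 and 4.37 in the same libraries. Their part in the higher Trpv2 was not tested. Cdh5, the adhesion molecule VE-cadherin of the junctional shear complex, rose by 0.94 (SE 0.21, adjusted p = 0.0356). Flt4, the VEGF receptor of lymphatic endothelium, fell by 1.10 (SE 0.22, adjusted p = 0.0204), from 2947 ± 327 to 1374 ± 303 CPM (SD, n = 2 each). It was the most abundant gene of the list, at 394.7 FPKM over all libraries, and also counts among the lymphatic markers. After chronic CS its log2 fold change was -0.36 (SE 0.16, adjusted p = 0.441) and the median of the list was -0.15. At an unadjusted p under 0.05, 1 of the 17 genes was higher and 4 were lower, against 5.57% and 5.35% of all genes. The 4 were Flt4, Plxnd1, Pecam1 and Cdh5, and the groups of each did not overlap, nor did those of the 1 higher gene. Of all genes, 3.92% lay wholly higher and 5.49% wholly lower in chronic CS. Plxnd1, a semaphorin receptor gene, was at 90.6 to 140.3 CPM in chronic CS and 151 to 239.8 CPM in chronic RA, with -0.77 (SE 0.18, adjusted p = 0.253). Pecam1, the CD31 gene, had -0.35 (SE 0.14, adjusted p = 0.425) and Cdh5 -0.37 (SE 0.15, adjusted p = 0.425).

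Genes of the MEKK3, ERK5 and MEF2 cascade and of the CCM complex were read together as a list. Of 13 genes of the MEKK3, ERK5, MEF2 and CCM group 1 rose and 1 fell after acute CS, with a median of -0.10. The shares of all genes called were 2.75% higher and 0.723% lower. Heg1, the transmembrane receptor that anchors the CCM complex in endothelium, was at 82.2 ± 19.9 CPM in air and 261 ± 91.0 CPM in smoke (SD, n = 2 each). The log2 fold change of Heg1 was 1.67 (SE 0.26, edgeR's adjusted p = 0.00797). Mef2c, which codes for a factor acting on the KLF genes, fell by 0.53 (SE 0.13, adjusted p = 0.0472). Map3k3, the MEKK3 gene and the most abundant of the list at 56.9 FPKM, had log2 fold changes of 0.03 (SE 0.13, adjusted p = 0.968) after acute and -0.08 (SE 0.09, adjusted p = 0.797) after chronic CS. In the chronic comparison 2 of the 13 were higher and 1 lower at an unadjusted p under 0.05, where 5.57% and 5.35% of all genes were.

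Among 16 genes of the KLF family and of targets of KLF2 and KLF4, 4 rose and 1 fell after acute CS. Of all genes, 2.75% were called higher and 0.723% lower. Thbd, the gene of the anticoagulant receptor thrombomodulin and a target that KLF2 raises, was at 548.5 ± 1.34 CPM in air and 1491 ± 449 CPM in smoke (SD, n = 2 each). Its log2 fold change was 1.44 (SE 0.25, edgeR's adjusted p = 0.0117). Slco2a1, a prostaglandin transporter gene, went from 129.7 ± 12.7 to 878 ± 444 CPM (SD, n = 2 each), with 2.76 (SE 0.36, adjusted p = 0.00418). Tek, the receptor of angiopoietins, rose by 1.06 (adjusted p = 0.0209) and the family member Klf13 by 0.71 (adjusted p = 0.0195), and the protease gene Adamts4 fell by 2.35 (adjusted p = 0.0292). In the same libraries Klf2 itself lay within the range of air.

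After chronic CS the same list had a median log2 fold change of 0.28 and 0 genes called. At an unadjusted p under 0.05, 7 of its 16 genes were higher and 1 was lower, against 5.57% and 5.35% of all genes. Among the 7 higher genes were Klf9, Slco2a1, Klf6 and Klf15, which had the smallest p of the list and were named after their values were seen. Klf9 was at 361 ± 19.3 CPM in chronic CS (SD, n = 5) and 233 ± 22.2 CPM in chronic RA (SD, n = 3), with a log2 fold change of 0.63 (SE 0.11, edgeR's adjusted p = 0.159). Slco2a1 was at 192 ± 46.4 and 88.8 ± 12.7 CPM, with 1.12 (SE 0.26, adjusted p = 0.252). Klf6 was at 1032 ± 131 and 673 ± 89.4 CPM, with 0.62 (SE 0.16, adjusted p = 0.262), and Klf15 at 30.1 ± 11.6 and 10.03 ± 3.80 CPM, with 1.59 (SE 0.44, adjusted p = 0.299). Thbd was at 670 ± 96.6 and 464 ± 102 CPM in the same groups (log2 fold change 0.53, SE 0.18, adjusted p = 0.367). Aqp1, the water channel gene with the highest level of the list at 2018 FPKM, was the gene that was lower, at -0.50 (SE 0.16, adjusted p = 0.333).

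**Figure D4:**
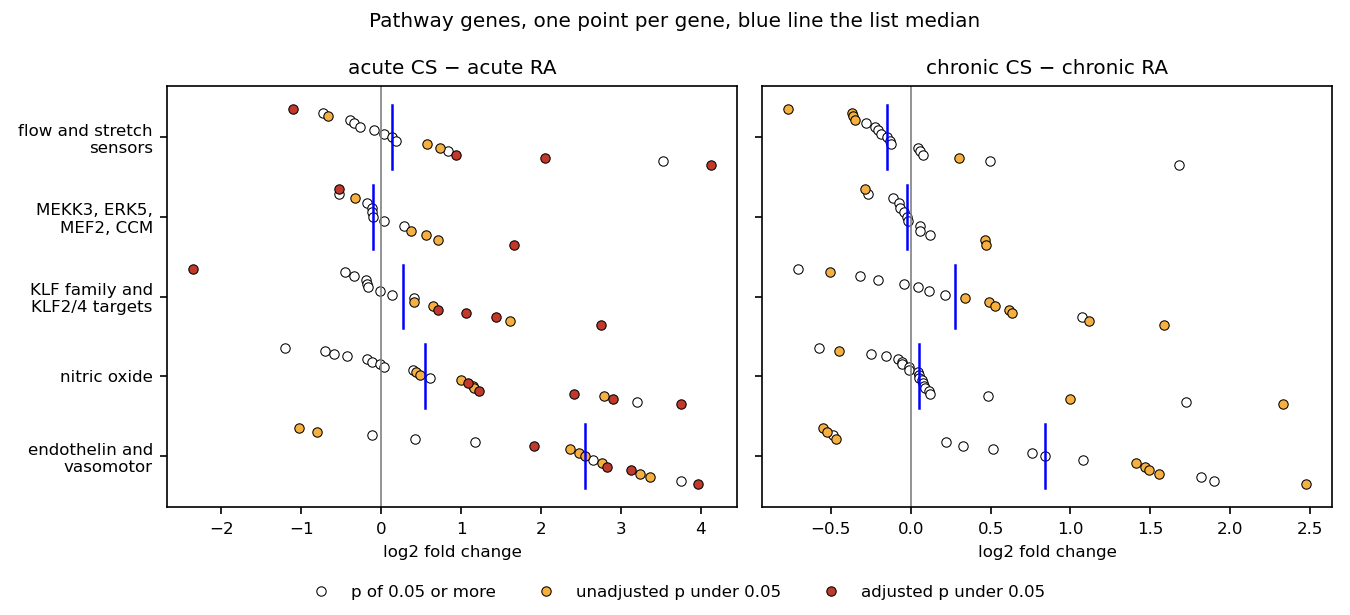
Log2 fold change of each tested gene of the 5 pathway lists after acute (left) and chronic CS (right), on axes of different width. Filling gives the edgeR p and the vertical line the median of the list. The endothelin and vasomotor list has the highest median in both, at 2.56 and 0.84, and adjusted p under 0.05 occurs on the left alone.

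Of 22 tested genes that make or handle nitric oxide, 5 rose and 0 fell in acute CS, against 2.75% and 0.723% of all genes. The median was 0.55 on the log2 scale. Cav1, the caveolar protein that holds the synthase inactive, was at 975 ± 9.60 CPM in air and 2063 ± 159 CPM in smoke (SD, n = 2 each). The log2 fold change of Cav1 was 1.08 (SE 0.23, edgeR's adjusted p = 0.0271). Nostrin, which draws the synthase off the membrane, went from 7.03 ± 2.22 to 94.6 ± 57.03 CPM, with 3.75 (SE 0.59, adjusted p = 0.00824). Genes that serve the synthesis rose as well. These were Gch1, the first enzyme toward its cofactor tetrahydrobiopterin (1.23, adjusted p = 0.0241), Ddah1, which clears an inhibitor of the synthase (2.41, adjusted p = 0.0201), and Ass1, which remakes its substrate arginine (2.90, adjusted p = 0.0181). The most abundant gene, the chaperone Hsp90ab1 at 424.5 FPKM, had -0.58 (SE 0.40, adjusted p = 0.568). After chronic CS the median was 0.05 and 0 genes were called, with 2 of 22 higher and 1 lower at an unadjusted p under 0.05, near the 5.57% and 5.35% of all genes. Hsp90ab1 had -0.06 (SE 0.29, adjusted p = 0.964), and Cav1 was at 1128 ± 264 CPM in CS and 1090.0 ± 4.29 CPM in RA (log2 fold change 0.05, SE 0.17, adjusted p = 0.937).

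Of 17 tested genes of the endothelin and other vasomotor systems, 4 rose and 0 fell after acute CS, with a median of 2.56. Among all genes, 2.75% were called higher and 0.723% lower. Ednrb, the endothelin receptor of endothelium, went from 62.9 (F) and 67.3 (M) CPM in acute RA to 346 (F) and 146 (M) CPM in acute CS. Its log2 fold change was 1.92 (SE 0.34, edgeR's adjusted p = 0.0122). Ednra, the receptor of smooth muscle, was at 4.65 (F) and 1.89 (M) CPM in acute RA and at 23.2 (F) and 10.5 (M) CPM in acute CS, which did not pass the test (2.37, SE 0.79, adjusted p = 0.151). Both CS libraries were above both RA libraries for both receptors, with F the higher as for Edn1. In acute CS 27.4% of all genes tested lay wholly higher. Ace, the angiotensin converting enzyme, rose by 3.96 (SE 0.58, adjusted p = 0.00670), and the prostaglandin genes Ptgs1 by 3.13 (SE 0.57, adjusted p = 0.0143) and Ptgis, the prostacyclin synthase, by 2.82 (SE 0.64, adjusted p = 0.0353). Ace is abundant in lung capillaries, and 6 of 12 blood endothelial markers rose in the same libraries. Their part in the higher Ace was not tested.

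After chronic CS the median of this list was 0.84 with 0 genes called, and 5 of 17 were higher and 3 lower at an unadjusted p under 0.05, against 5.57% and 5.35% of all genes. Ednrb was at 84.2 ± 14.4 CPM in chronic CS (SD, n = 5) and 72.4 ± 8.24 CPM in chronic RA (SD, n = 3), with a log2 fold change of 0.22 (SE 0.24, edgeR's adjusted p = 0.770). Ednra was at 8.13 ± 4.23 and 2.90 ± 1.49 CPM (1.49, SE 0.58, adjusted p = 0.403), and its lowest CS value, 2.52 CPM, was again that of the female library. Ace had 0.84 (SE 0.39, adjusted p = 0.464). The other ligand genes were scarce. Edn2 was at 0 in all libraries but chronic RA F, with 8 counts, and Edn3 was at 6.58 CPM or less.

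The genes most like each of the 7 were sought by Pearson's r of log2 CPM over the 12 libraries, among 9845 genes of at least 10 CPM on average. The libraries share groups, depth and markers of other cells, so r is a description only. Edn1 went closest with Tcf7 (r = 0.988), Glul (0.972) and Rasgef1a (0.97), and Nos3 with Palmd (0.969), Ackr3 (0.961) and Ptgs1 (0.96). For Klf2 the closest were Atm (0.881), its relative Klf6 (0.875) and Utrn (0.869), and for Klf4 Rai14 (0.866), Mettl7a1 (0.837) and the airway secretory gene Bpifa1 (0.829). After group means were removed, r was 0.965, 0.94 and 0.874 for Edn1 with Tcf7, Glul and Rasgef1a. It was 0.514, 0.831 and 0.665 for Nos3 with Palmd, Ackr3 and Ptgs1, and 0.386, 0.553 and 0.876 for Klf2 with Atm, Klf6 and Utrn. Piezo1 went with Kdm5c (0.908), Foxj2 (0.881) and Zfp146 (0.874), Trpv4 with Uqcrq (0.883), Pbdc1 (0.863) and Mitd1 (0.85), and Ece1 with Gab2 (0.95), Tollip (0.942) and Ddb1 (0.939).

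Among the 7 themselves, r over the 12 libraries was highest for Nos3 with Edn1, at 0.783, followed by Klf2 with Klf4 at 0.599 and Klf4 with Edn1 at 0.589. The lowest were Nos3 with Piezo1, at -0.539, and Edn1 with Ece1, at -0.513. Klf2 with Nos3, factor and target, stood at 0.312. Piezo1 with Trpv4, the 2 channels, stood at 0.26.

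Some of the counts are uncertain because genes overlap on opposite strands and the strand setting of the counting is not stated. Piezo1 shares 2441 exon bases with Ctu2, which was at 30.8 to 42.2 CPM. Nos3 shares 1040 exon bases with Gm15587 and 294 with Atg9b, which were at no more than 1.94 and 2.60 CPM, and Edn1 shares 35 with Gm47118, at no more than 0.648 CPM. The part of these overlaps in the values was not tested.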

How the data were processed

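RNA of sorted lung LECs from 12 libraries was analyzed. The deposited values are counts of reads per Ensembl gene. Per the labels and the methods of the study, libraries were made with SMART-Seq v4, reads were checked with FastQC 0.11.9, trimmed with Skewer, filtered with Minion and aligned to GRCm38 with STAR, and the authors counted them with its GeneCounts mode, without normalization. Which annotation release and strand setting they used is not given in the sources used here, and reads shared by genes may be lost or split. Groups, sex and number come from the labels and the lengths of exposure from the paper.

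Symbols, positions and exon lengths were taken from GENCODE M21, in which 147 of 52636 identifiers were not found. Counts were analyzed in R 4.3.3 with edgeR 4.0.16 and limma 3.58.1. The filter by expression left 21440 genes. One quasi-likelihood fit by group with TMM factors held all 12 libraries, and p-values were adjusted by the method of Benjamini and Hochberg, with calls at 0.05. CPM are scaled by TMM, and a prior count of 2 was added for log2 CPM. Exact two-sided permutation tests cannot go below 0.333 (acute), 0.0357 (chronic) and 0.2 (controls). Total counts ranged from 18821438 to 56998590. Floors of 3 counts cover counting error only. The fit was tested on simulated data. Nothing says that the libraries of a group are separate experiments beyond their labels, so p-values measure the spread between libraries.

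The 7 genes and all lists were chosen with earlier results of these data known. Lists are described by counts and medians. Named are the 7 genes, list genes past the adjusted limit (up to 4 per direction with the smallest p), in comparisons with no such gene the list gene of highest FPKM, the 3 genes most like each of the 7, markers, and Ednra, Ednrb, Cav1 and Thbd. Outside this rule, Klf6, Klf9, Klf15, Slco2a1, Plxnd1, Pecam1 and Cdh5 after chronic CS, the remaining endothelin ligands Edn2 and Edn3, and the acute values of the genes of highest FPKM were added after values were seen. Alternatives were DESeq2 1.42.0, library size for TMM, no filter on low counts, sex as a covariate, a replicate block, only the groups compared, 2 subsets of chronic CS, and leaving out each library. Cultured cells, tissue staining and human data were not analyzed here.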

Additional observations from a re-analysis of the deposited data

How the results depend on the processing

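Every library left out in turn gave 0 to 2 of the 7 genes, 0 to 21 pathway genes and 3 to 973 of all genes called in the acute comparison. It gave 0 and 0 with 0 to 4 genes in the chronic one, 0 and 0 with 0 to 2 between controls, and 0, 0 to 12 and 0 to 263 for the difference of effects. The 3 acute genes were left without acute RA M, and the 263 of the difference without acute CS M.

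DESeq2 called 34 pathway genes and 1961 genes after acute CS, 2 of the 7 with 8 and 524 after chronic CS, 3 and 253 between controls, and 1 of the 7 with 18 and 920 for the difference of effects. Fitting the groups compared alone gave 0 of the 7, 1 pathway gene and 139 genes in the acute comparison and 2 and 42 between controls. Without a filter on low counts 1 of the 7 and 10 genes were called after chronic CS, 6 between controls, and 2 pathway genes and 191 genes for the difference. Sex as a covariate left 21 genes for the difference. Chronic CS F, M1 and M2 alone gave 1 gene in the chronic comparison and 1 pathway gene for the difference, and M3 and M4 alone gave 16 chronic genes.

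With the replicate block (same sex and number), 0 of the 7, 3 pathway genes and 73 genes were called after acute CS and 0 genes for the difference. The deviations of libraries with the same label had r = 0.07 for the acute pairs and -0.04, 0.03 and 0.0060 for the chronic F, M1 and M2 pairs. With 2 libraries a group, both acute pairs give the same r by construction. So few values cannot show whether these libraries share more than sex and, among chronic males, a number. The block gave no value between controls. It changed no other call of the 7.

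Signs turned in values that passed no test. Klf2 after acute CS was -0.0018 by library size and -0.18 to 0.25 with libraries left out, and Piezo1 after acute CS -0.51 to 0.23. Trpv4 after chronic CS was 0.051 by library size, 0.22 with the block, 0.32 with F, M1 and M2 alone, -0.80 with M3 and M4 alone and -0.34 to 0.13 with libraries left out, and Ece1 0.056 with M3 and M4 alone. For the difference of effects, Klf4 was 0.013 with sex, 0.13 with the block, 0.052 with F, M1 and M2 alone and -0.19 to 0.083 with libraries left out. Piezo1 was -0.016 by library size, -0.036 with F, M1 and M2 alone and -0.30 to 0.43 with libraries left out, Ece1 -0.072 by library size, -0.15 with M3 and M4 alone and -0.12 to 0.10, and Trpv4 0.34 with M3 and M4 alone. The cause of these changes was not tested, apart from fewer libraries where libraries were left out. Scaling by library size moved the median log2 fold change of all genes to -0.10 between controls and 0.10 after chronic CS.

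With 2 libraries a group the acute comparison has a wide error for single genes, and its exact permutation test cannot go below 0.333. The counts of Nos3 and Edn1 in room air are the lowest of the 7. Markers of other cells differ between the acute groups, and their part was not tested.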
